A study of Mus musculus with 12 samples.

Results

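The genes described are the replication-dependent histone genes that sit in the Hist1, Hist2, Hist3 and Hist4 clusters of the mouse genome, as they appear in libraries made from poly(A) RNA. Members were taken by symbol, as every gene whose symbol begins with Hist1h, Hist2h, Hist3h or Hist4h, which gave 70 of the 52535 genes counted. There were 6 genes for the linker histone H1, 20 for H2A, 19 for H2B, 12 for H3 and 13 for H4, and 3 of the 70 (Hist1h2aj, Hist1h2al and Hist3h2bb-ps) are annotated as pseudogenes. The Hist1 genes lie on chromosome 13, the Hist2 genes on chromosome 3, the Hist3 genes on chromosome 11 and Hist4h4 on chromosome 6 (mm10).

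The cells were 3 lines of T-cell acute lymphoblastic leukemia (T-ALL), named 240, 242 and 352, each grown from the lymphoma of a different Akt2;Dlx5 double transgenic mouse. In these mice the Lck promoter, which is active in thymocytes, drives the homeobox gene Dlx5 and a myristoylated, constitutively active Akt2 kinase, so both groups of cells carry both transgenes. Treated cells had received β-Catenin/Tcf Inhibitor II, a small molecule that keeps β-catenin off Tcf proteins, at 1 µM for 20 h. Control cells are described in the study's text as placebo-treated. By the labels each line gave 1 treated library and 1 control library, each run in 2 lanes, so each group held 3 libraries, and the comparison asks which histone messages differed after the inhibitor.

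Most eukaryotic messages end in a poly(A) tail. The messages of the clustered histone genes are the known exception in animals: they are cut just after a short stem-loop, which is bound by the stem-loop binding protein Slbp, and they are made mainly in S phase, when new DNA has to be packed. The same genes can also be read through the stem-loop to a poly(A) signal further on, which gives a tailed message, a form known above all from cells that have left the cycle. The libraries were prepared on poly(T) beads, which hold tailed RNA, so the counts below are those of tailed or otherwise carried-over histone RNA and do not measure the total amount of histone message.

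Both kinds of 3′ end can be seen in the annotation of the members with the most counts. The stem-loops below are shown because they mark where the untailed message would end. They are 30-base windows of the mm10 reference (GENCODE vM21 gene models), written 5′ to 3′ on the gene's strand, with the 16 bases of the stem-loop motif in capitals.
Hist1h1c, chr13:23739505-23739534: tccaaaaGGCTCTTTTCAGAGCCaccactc
Hist3h2ba, chr11:58949342-58949371: acccaaaGGCTCTTTTCAGAGCCaccttcc
Hist3h2a, chr11:58955165-58955194: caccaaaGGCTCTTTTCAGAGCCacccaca
Hist1h2ao, chr13:21810891-21810920: aaaaaaaGGCTCTTTTCAGAGCCatccaca
Hist1h2bj, chr13:22043631-22043660: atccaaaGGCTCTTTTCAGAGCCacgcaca
Hist4h4, chr6:136803991-136804020: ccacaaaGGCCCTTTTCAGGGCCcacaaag
The first 5 share the same 16 bases and Hist4h4 differs within the stem. In Hist1h2ao and Hist1h2bj the annotated transcript ended 31 and 23 bases after the motif, whereas it went on for 169 bases in Hist3h2ba, 840 bases in Hist1h1c, 1643 bases in Hist3h2a and 2445 bases in Hist4h4.

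The annotated ends of the longer models are shown for comparison, again as 30 bases of the reference, with the poly(A) signal (AATAAA or ATTAAA) in capitals.
Hist1h1c, chr13:23740330-23740359: gtgtatgcttctAATAAAaagcgtttagtt
Hist2h2be, chr3:96223705-96223734: gttattattattAATAAAgttaccgattag
Hist3h2ba, chr11:58949495-58949524: cataatggtattAATAAAtttggttcaatt
Hist3h2a, chr11:58956785-58956814: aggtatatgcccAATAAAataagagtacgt
Hist1h4i, chr13:22040639-22040668: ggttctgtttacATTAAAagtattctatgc
Hist4h4, chr6:136801553-136801582: agaagatgctagaggagatgaAATAAAtac
No such signal was found in the last 50 annotated bases of Hist1h2ao or Hist1h2bj.

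Library depth set what could be seen. Summed counts were 3160824, 604984 and 13766638 in the treated libraries of lines 240, 242 and 352, and 4031144, 3354980 and 13221186 in their controls. A count of 0 allows up to 3 counts, which is 4.96 CPM (counts scaled to the library total) in the treated library of line 242 and between 0.218 and 0.949 CPM in the other 5 libraries. The treated library of line 242 stood apart in other ways too. Mitochondrially encoded genes took 11.8% of its counts, against 1.84% to 3.10% in the other 5 libraries. T-cell markers, 18 of 18 detected, summed to 8373, 3808 and 4765 CPM in treated cells and to 8362, 8444 and 6198 CPM in control cells, so the labelled cell type was present in each library. The 7 B-cell markers summed to 119 CPM in the treated library of line 242 and to 0.298 to 4.11 CPM elsewhere. Of its 72 such counts 43 were Pax5 and 27 were Ebf1, while Cd79b had 0 counts and Cd79a and Ms4a1 had 1 count each. The 6 epithelial markers summed to 26.4 CPM there, against 0.248 to 17.7 CPM in the other libraries. The 7 stromal markers summed to 77.7 CPM there, against 42.6 to 73.4 CPM in the other libraries, with Col1a1 at 23.1 CPM (0 to 1.58 CPM elsewhere) and Cdh5 at 18.2 CPM (0 to 0.316 CPM elsewhere). The 8 myeloid markers summed to 52.9 CPM there, against 10.4 to 45.2 CPM, mostly from Itgam, and Lyz2, Elane and Csf3r had 0 counts in every library. The part of this library's composition in the results below was not tested, and the tests of the members are also given without line 242.

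Clustered histone RNA was scarce in all 6 libraries. The 70 genes together took 42.7, 139 and 129 CPM in treated cells of lines 240, 242 and 352, and 69.0, 66.2 and 169 CPM in control cells. For comparison, 14 genes were listed as replication-independent histone genes, most of whose messages carry tails. They summed to 2671, 1825 and 3257 CPM in treated cells and to 2660, 2793 and 3586 CPM in control cells. A library held at least 1 count for 29, 18 and 50 members in treated cells and for 39, 46 and 54 members in control cells. Over all libraries 63 members were detected, 10 of them in every library, and 49 members had fewer than 30 counts in total.

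The 7 members with 0 counts throughout were Hist1h1t, Hist1h2aa, Hist1h2ba, Hist1h4m, Hist2h2aa1, Hist2h2ab and Hist2h3c1. Hist1h1t, Hist1h2aa and Hist1h2ba encode histones known from the testis. At the other end, 4 genes held 64.3% of the 4723 histone counts. They were Hist1h1c (25.0%), Hist2h2be (17.9%), Hist3h2ba (12.4%) and Hist1h2ao (8.98%), that is, a linker histone gene, a pair of H2B genes and an H2A gene. This order is mainly that of line 352, which supplied 1774 of the counts in treated cells and 2230 in control cells. Hist1h2ao took 8.46% and 11.9% of the histone counts in treated and control cells of line 352, but 2.22% or less in every other library. In line 242 Hist3h2ba took 0% and 3.15% in treated and control cells, below Hist1h1d in the treated library (27.4%) and below Hist1h2bj (12.6%) and Hist1h4i (11.3%) in the control.

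Annotated 3′ ends went along with part of this unevenness. A poly(A) signal lay in the last 50 bases of 17 of the 70 members (24.3%), against 44.0% of the 55341 annotated genes, and these 17 held 67.8% of the histone counts summed over libraries. By library the 17 held 66.7%, 53.6% and 76.3% in treated cells of lines 240, 242 and 352, and 70.5%, 42.8% and 63.7% in control cells. The stem-loop motif, searched on the transcript strand as GG, 2 free bases, CTT, 1 free base, TCAG, 2 free bases and CC, was present in 36 members (51.4%) and in 0.155% of all annotated genes. Of the other 34 members, 18 either have models that stop within 2 bases of the coding sequence, where the motif could not lie, or are the 3 pseudogenes, which have no annotated coding sequence. The 11 members with both elements held 44.3% of the summed histone counts (18.5% in the control of line 242 to 57.4% in treated cells of line 352), the 6 with the signal only 23.4%, the 25 with the stem-loop only 20.9% and the 28 with neither 11.3%.

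Levels between genes were compared per kilobase of annotated exon, in the mean of the 3 controls. Per kilobase the highest members were Hist3h2ba at 17.9, Hist1h2ao at 15.0, Hist1h1c at 10.8, Hist1h4i at 8.63, Hist2h2be at 7.85, Hist1h2bj at 7.66 and Hist1h2ap at 6.59 CPM per kb. Members with and without a poly(A) signal were not set apart as groups on this scale. The median was 0.283 CPM per kb over the 17 with a signal and 0.544 CPM per kb over the 53 without, and Hist1h1c, Hist2h2be, Hist3h2ba and Hist1h4i held most of the counts of the first group. Hist1h2ao, Hist1h2bj and Hist1h2ap, with no signal and a stem-loop near the annotated end, had means in the same range, but each of these means rested on 1 control library. Without the control of line 352, Hist1h2ao stood at 1.65 and Hist1h2ap at 2.11 CPM per kb, and without the control of line 242, Hist1h2bj stood at 2.48 CPM per kb. Without the control of line 352 the means of Hist3h2ba, Hist1h1c, Hist2h2be and Hist1h4i were 8.97, 5.68, 4.98 and 7.68 CPM per kb.

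**Figure D1:**
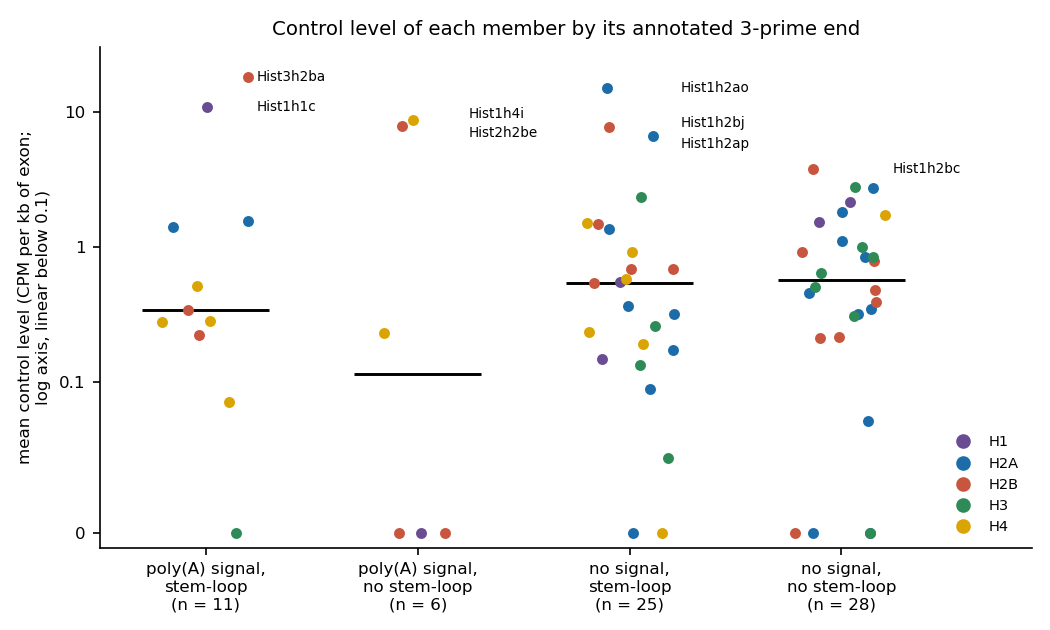
Control level of each of the 70 members (vertical axis, mean of 3 control libraries in CPM per kb of exon, log axis that is linear below 0.1) by whether the annotated transcript has a poly(A) signal in its last 50 bases and the stem-loop motif. Points are genes coloured by histone, bars are medians, and members above 3 CPM per kb are named; most members of all 4 sets lie below 1 CPM per kb.

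Several members cannot be told from one another in short reads. For 34 of the 70, over 50% of the 50-base stretches of their exons occur in another gene too, which includes Hist1h2ao (93.5%) and Hist1h2ap (93.1%), so the split of counts between such copies is uncertain. Hist2h2be shared 0% and Hist1h1c 8.54% of these stretches. Hist3h2a overlaps Trim17 on the same strand, and Hist1h1e and Hist1h2be overlap each other. Exons of 23 members, among them every H2A gene, overlap another gene on the opposite strand. These 23 held 21.6% of the histone counts. The strand setting of the counting is not known, and the part of these overlaps in the H2A levels was not tested.

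The summed level moved in opposite directions in different lines. As a ratio within each line, treated over control was 0.619 in line 240 (95% interval from counting error, 0.50 to 0.763), 2.10 in line 242 (1.61 to 2.71) and 0.764 in line 352 (0.717 to 0.814). These intervals, like all those on counts here, cover counting error only. In line 352 the lanes of a library differed by more than counting error, with a chi-square per member of 3.02 in treated cells and 2.54 in control cells, so its intervals are too narrow. Averaged over the 3 lines the log2 ratio was 0.00 ± 0.94 (SD, n = 3), and over lines 240 and 352 it was −0.54. Within a line the number of members with a higher CPM in treated cells was 15, 16 and 18 in lines 240, 242 and 352, and the number with a lower CPM was 32, 35 and 42. Depth enters these numbers. In line 242 the shallow treated library held a count for 18 members and its control for 46, and a member with 0 counts only in treated cells scored as lower. The share of all genes was not taken, so the numbers are not read as a fall of the members. In bulk RNA, fewer cells making a message and less message per cell cannot be told apart.

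**Figure D2:**
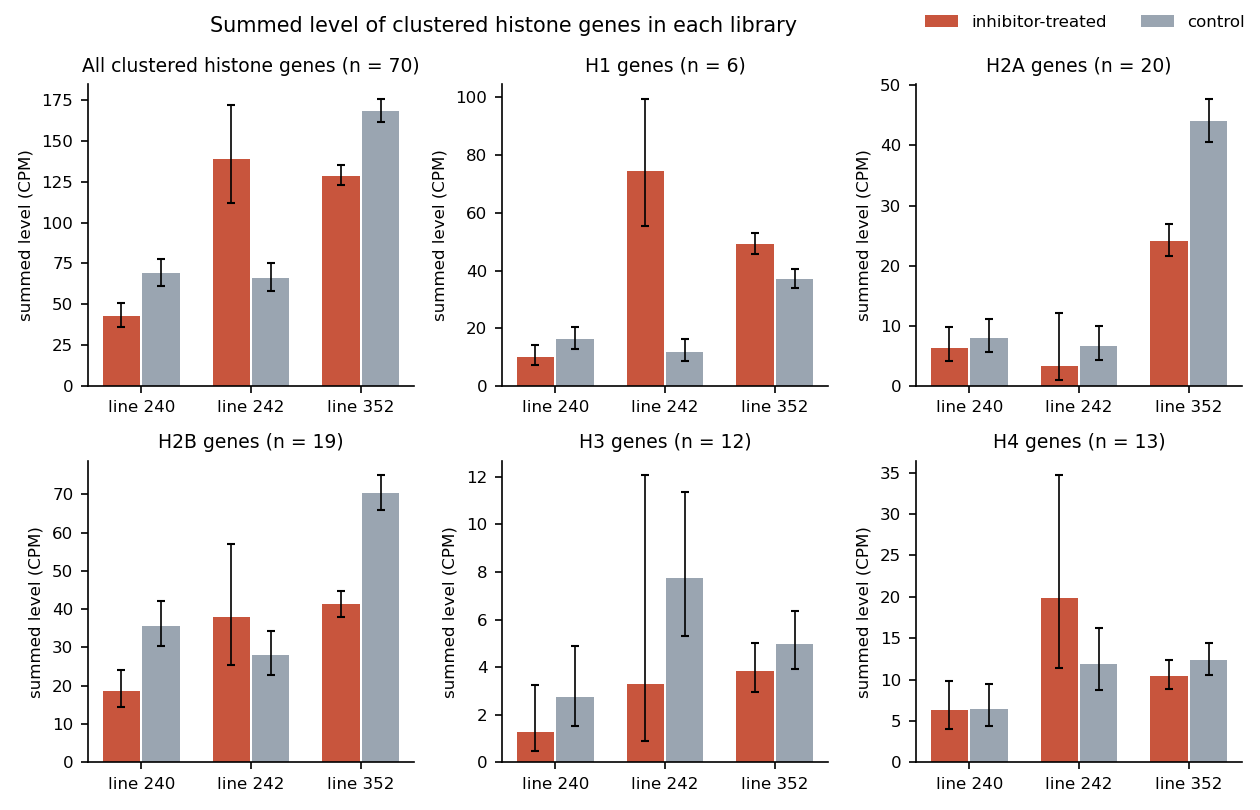
Summed level of all members and of each histone class (vertical axes, CPM of the library total, from 0) in treated (red) and control (grey) libraries of the 3 lines, with 95% Wilson intervals from counting error. The H2A and H3 sums are lower in treated cells in all 3 lines, and the H1 sum of line 242 is 74.4 CPM against 11.9 CPM.

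No member passed the test across the 3 lines. The filter on low counts kept 10331 genes, among them 6 members, and edgeR's quasi-likelihood test with the line as a block called 0 genes higher (0%) and 0 lower (0%) at an adjusted p below 0.05, with 570 genes and 0 members at an unadjusted p below 0.05. DESeq2 called 35 genes higher (0.339%) and 10 lower (0.0968%) and 0 members, but it gave no adjusted p for Hist1h2bc, Hist1h4i and Hist3h2a. The median log2 fold change of the 6 members kept was −0.60, beside 0.00 over all genes tested. Within lines, 1 of the 6 members was lower in all 3 (17% of genes tested were), and 0 were higher in all 3 (15.9% of genes were). The same fit without line 242 kept 11760 genes and called 589 higher (5.01%) and 696 lower (5.92%). Of the 12 members it kept, 0 rose and 2 fell, Hist2h2be and Hist1h2bc. The median log2 fold change of the 12 was −0.35, beside −0.01 over all genes tested.

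H1 genes encode the linker histones, which sit where DNA enters and leaves the nucleosome and help to fold chromatin. The H1 sum was 10.1, 74.4 and 49.2 CPM in treated cells of lines 240, 242 and 352, and 16.1, 11.9 and 37.1 CPM in control cells. It was thus lower in treated cells of line 240 (ratio 0.628, 0.398 to 0.973) and higher in those of line 242 (6.24, 3.98 to 9.80) and line 352 (1.33, 1.18 to 1.49). Hist1h1c made up most of it in lines 240 and 352. Without Hist1h1c the ratio in line 352 was 0.662 (0.431 to 1.01), on the other side of 1.

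Hist1h1c (chr13:23738808-23740367) had 7.28, 33.1 and 46.3 CPM in treated cells of lines 240, 242 and 352, from 23, 20 and 637 counts, and 11.2, 6.56 and 32.7 CPM in control cells, from 45, 22 and 432 counts. It was the only one of the 6 members tested across lines with a fitted log2 fold change above 0, and the groups overlapped. Its log2 fold change was 0.66 ± 0.57 (SE; edgeR adjusted p = 0.854), and 0.23 ± 0.22 without line 242 (adjusted p = 0.565).

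Hist1h1d (chr13:23553262-23560686), a linker histone gene with an annotated model that goes on for 4884 bases after its stem-loop, did not pass the filter of the 3-line test and is named because of its values. It had 2.21, 38.0 and 1.45 CPM in treated cells, from 7, 23 and 20 counts, and 0.992, 1.49 and 0.832 CPM in control cells, from 4, 5 and 11 counts. The level was higher in treated cells of each line, with the groups overlapping at 1.45 and 1.49 CPM. Without a filter its log2 fold change was 2.09 ± 0.94 (edgeR adjusted p = 0.452, unadjusted 0.0267), in a fit of 28529 genes that called 260 higher (0.911%) and 52 lower (0.182%), and in the fit without line 242 it was 0.90 ± 0.69 (adjusted p = 0.451). Of the other linker genes, Hist1h1a, Hist1h1b and Hist1h1e had at most 19 counts in any library.

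H2A and H2B pair as dimers that flank the H3-H4 core of the nucleosome. The H2A sum was lower in treated cells of all 3 lines, at 6.33, 3.31 and 24.1 CPM, against 7.94, 6.56 and 44.0 CPM in control cells. The ratio was 0.797 in line 240 (0.432 to 1.44), 0.504 in line 242 (0.0575 to 2.05) and 0.548 in line 352 (0.477 to 0.628), so counting error alone left the direction unsettled in lines 240 and 242. The mean log2 ratio was −0.63 ± 0.28 (SD, n = 3), and −0.59 over lines 240 and 352.

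Hist1h2ao (chr13:21810465-21810944, with the short 3′ end printed above) was largely a gene of line 352. Its level was 0.949, 0 and 10.9 CPM in treated cells, from 3, 0 and 150 counts, and 0.992, 0.596 and 20.0 CPM in control cells, from 4, 2 and 265 counts. Both libraries of line 352 were above all libraries of the other lines. In the fit without line 242 its log2 fold change was −0.84 ± 0.30 (edgeR adjusted p = 0.0996), which missed the threshold. Hist1h2ap, a near-identical H2A gene, had 1.58, 0 and 1.74 CPM in treated cells and 0.248, 1.79 and 7.49 CPM in control cells, and a log2 fold change of −1.41 ± 0.71 in that fit (adjusted p = 0.235).

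Hist3h2a (chr11:58954685-58956830), an H2A gene that lies near Hist3h2ba, had 1.90, 1.65 and 6.03 CPM in treated cells, from 6, 1 and 83 counts, and 3.97, 0.596 and 5.37 CPM in control cells, from 16, 2 and 71 counts. It was lower in treated cells of line 240 and higher by a small margin in those of line 352. Its log2 fold change was −0.14 ± 0.66 (edgeR adjusted p = 0.993), and −0.18 without line 242. The pseudogene Hist1h2aj had 18 counts in the treated library of line 352 and 34 in its control, and 0 to 2 counts elsewhere.

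H2B genes gave both members that passed a test. The H2B sum was 18.7, 38.0 and 41.3 CPM in treated cells of lines 240, 242 and 352, and 35.7, 28.0 and 70.3 CPM in control cells. The ratio was 0.523 in line 240 (0.379 to 0.712), 1.36 in line 242 (0.821 to 2.16) and 0.587 in line 352 (0.528 to 0.653), so lines 240 and 352 were lower with the inhibitor beyond counting error.

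Hist2h2be (chr3:96221119-96223738), which encodes an H2B and ends in a poly(A) signal with no stem-loop match, had 8.86, 14.9 and 17.3 CPM in treated cells, from 28, 9 and 238 counts, and 18.4, 7.75 and 35.6 CPM in control cells, from 74, 26 and 471 counts. In lines 240 and 352 the level with the inhibitor was lower than in control by a similar factor, while line 242 went the other way on 9 and 26 counts. Across 3 lines the log2 fold change was −0.58 ± 0.47 (edgeR adjusted p = 0.852). Without line 242 it fell (log2 fold change −1.06 ± 0.19, adjusted p = 0.00476), and within lines 240 and 352 the log2 ratios were −1.01 and −1.05. None of its 50-base stretches occur in another gene.

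Hist2h2be is transcribed away from the H2A gene Hist2h2ac, with 238 bases between their annotated starts. The RefSeq promoter of Hist2h2ac (GRCm38.p6, 250 bases before to 50 after its start, chr3:96220831-96221130, minus strand, 5′ to 3′) is shown because it spans that region. Capitals mark the octamer ATTTGCAT and CCAAT on either strand.
Hist2h2ac promoter: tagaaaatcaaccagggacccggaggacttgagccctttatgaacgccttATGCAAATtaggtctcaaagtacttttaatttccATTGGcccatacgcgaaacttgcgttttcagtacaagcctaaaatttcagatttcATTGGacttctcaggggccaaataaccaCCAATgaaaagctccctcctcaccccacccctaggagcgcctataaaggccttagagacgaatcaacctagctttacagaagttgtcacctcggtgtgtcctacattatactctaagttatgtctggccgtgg
Hist2h2ac had at most 2 counts in any library, against 9 to 471 for Hist2h2be, and its annotated end holds no poly(A) signal. RefSeq promoters were matched for 61 of the 70 members. The octamer was present in 7 of 17 H2A and 6 of 16 H2B promoters, in 0 of the 28 promoters of other members and in 1.75% of 27025 mouse promoters. CCAAT was present in 85.2% of the members' promoters and 37.9% of all promoters, and TATAAA in 57.4% and 14.2%. By class, CCAAT was in 100% of the matched H1, H2A, H2B and H3 promoters but in only 3 of 12 H4 promoters (25%). A match to these letters is not by itself a bound site.

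Hist1h2bc (chr13:23684199-23692908), an H2B gene with a spliced model and no poly(A) signal in its last 50 annotated bases, had 1.27, 6.61 and 1.60 CPM in treated cells, from 4, 4 and 22 counts, and 2.98, 2.68 and 7.41 CPM in control cells, from 12, 9 and 98 counts. The level was lower in treated cells of lines 240 and 352 and higher in those of line 242, where it rested on 4 counts. The log2 fold change was −0.97 ± 0.88 across 3 lines (edgeR adjusted p = 0.861). Without line 242 it fell, at −1.98 ± 0.51 (adjusted p = 0.0282), with log2 ratios of −1.05 and −2.03 in lines 240 and 352.

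Hist3h2ba (chr11:58948920-58949533), an H2B gene with both a stem-loop and a poly(A) signal in a short model, was the only one of the 6 members lower in treated cells of all 3 lines. It had 4.11, 0 and 17.5 CPM in treated cells, from 13, 0 and 241 counts, and 8.93, 2.09 and 21.9 CPM in control cells, from 36, 7 and 290 counts. The 0 of line 242 allows up to 4.96 CPM, above its control, so the direction there was not detectable at this depth. Its log2 fold change was −0.81 ± 0.48 (edgeR adjusted p = 0.843) and −0.53 ± 0.25 without line 242 (adjusted p = 0.200). Hist1h2bj, whose annotated transcript ends 23 bases after its stem-loop, had 1.27, 0 and 1.02 CPM in treated cells and 1.24, 8.35 and 1.06 CPM in control cells. The only library in which Hist1h2bj was plentiful was the control of line 242, with 28 counts.

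H3 and H4 form the tetramer at the centre of the nucleosome. H3 genes had the lowest sums in both groups of lines 240 and 352, while in line 242 the H2A sum was lower in control cells and equal in treated cells. The H3 sums were 1.27, 3.31 and 3.85 CPM in treated cells and 2.73, 7.75 and 4.99 CPM in control cells. The ratio was 0.464, 0.427 and 0.771 in lines 240, 242 and 352, and the counting interval included 1 in each. Hist1h3c, the H3 member with the most counts, had 1, 1 and 8 counts in treated cells and 3, 10 and 20 counts in control cells.

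H4 sums were 6.33, 19.8 and 10.5 CPM in treated cells and 6.45, 11.9 and 12.3 CPM in control cells, with ratios of 0.981, 1.66 and 0.848 whose intervals all included 1. Hist1h4i (chr13:22040636-22041362) had 3.80, 0 and 6.61 CPM in treated cells, from 12, 0 and 91 counts, and 3.72, 7.45 and 7.64 CPM in control cells, from 15, 25 and 101 counts. Lines 240 and 352 were close to their controls. In line 242 the 0 in treated cells allows up to 4.96 CPM, below the 7.45 CPM of the control. Its log2 fold change was −0.63 ± 0.76 (edgeR adjusted p = 0.900), and −0.16 ± 0.36 without line 242 (adjusted p = 0.825).

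Hist4h4 (chr6:136801553-136804415), the lone gene of its cluster, did not pass the filter and is named because of its values. It had 0.949, 11.6 and 1.74 CPM in treated cells, from 3, 7 and 24 counts, and 0, 0.596 and 0.151 CPM in control cells, from 0, 2 and 2 counts. Every treated library was above every control library, but the closest values, 0.949 CPM in treated line 240 and 0.596 CPM in control line 242, rested on 3 and 2 counts. Those are too few to tell apart. Without a filter its log2 fold change was 3.88 ± 1.51 (edgeR adjusted p = 0.290, unadjusted 0.0102), and without a filter and without line 242 it was 3.63 ± 1.38 (adjusted p = 0.0980), in a fit of 24986 genes that called 765 higher (3.06%) and 963 lower (3.85%). With 0 and 2 counts in the controls of lines 240 and 352 these fold changes depend on the prior count.

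**Figure D3:**
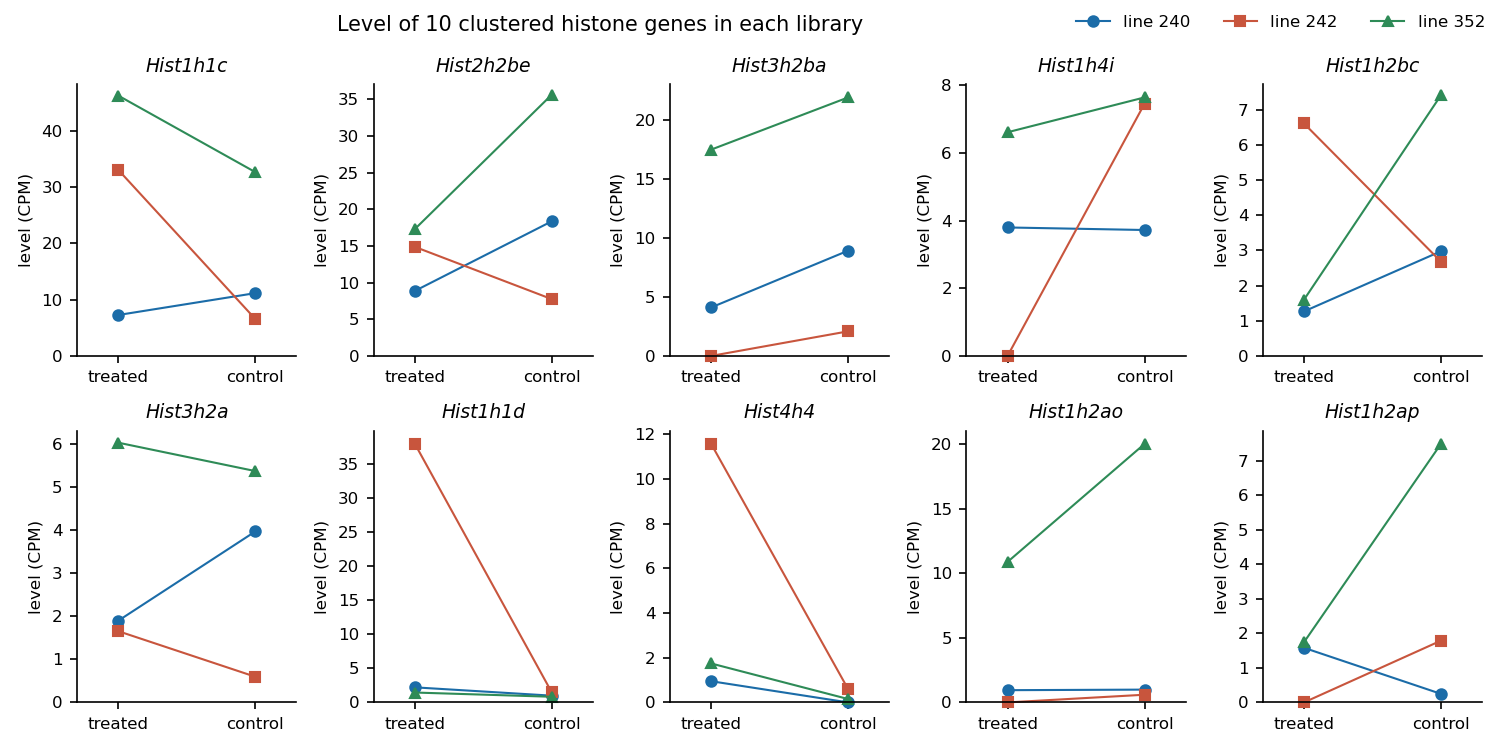
Level (vertical axes, CPM, from 0) of 10 members in each library, treated on the left and control on the right, with a line joining the libraries of each T-ALL line; there are no error bars because each point is 1 library. Hist2h2be and Hist1h2bc are lower in treated cells of lines 240 and 352 and higher in those of line 242, and Hist4h4 is higher in treated cells of all 3 lines.

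Taking the 12 members of the fit without line 242, 4 were lower in treated cells of both line 240 and line 352 (33.2% of genes tested were) and 1, Hist1h1d, was higher in both (33.8% of genes were). The 4 were Hist2h2be, Hist1h2bc, Hist3h2ba and Hist1h2ao. In line 242 the same 4 split, with Hist2h2be and Hist1h2bc higher in treated cells and Hist3h2ba and Hist1h2ao at 0 counts there. The 2 calls among 12 members compare with 5.92% of genes called lower in that fit, and no test of the list was made.

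**Figure D4:**
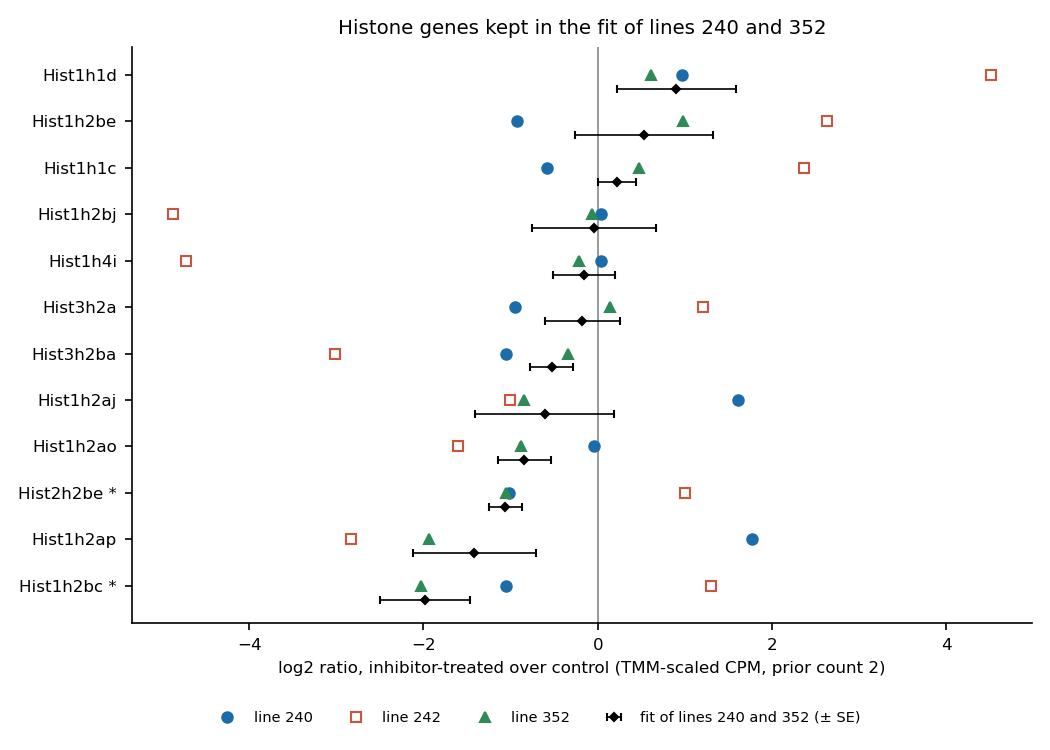
Log2 ratio of treated over control (horizontal axis, TMM-scaled CPM with a prior count of 2) within each line for the 12 members kept in the fit of lines 240 and 352, with the fitted log2 fold change of these 2 lines and its SE as black diamonds; asterisks mark an adjusted p below 0.05. The open squares of line 242 spread from −4.88 for Hist1h2bj to 4.51 for Hist1h1d, wider than the points of the other lines.

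Line 242 also differed in which members carried its counts. Members whose annotated span is 1000 bases or more, 19 of the 70, made up 62.2%, 90.5% and 61.1% of the histone counts in treated cells of lines 240, 242 and 352, and 62.2%, 41.0% and 51.9% in control cells. In line 242 the 95% Wilson intervals, 82.3% to 95.1% in treated cells and 34.7% to 47.6% in control cells, did not overlap. Those of line 352, at 58.8% to 63.3% and 49.9% to 54.0%, did not overlap either, but they are too narrow, as said above. Hist1h1c, a member of this set, took 35.9% of the histone counts in treated cells of line 352 and 19.4% in its control, so the difference in line 352 is not a shift shared across the long members. In line 240 the intervals overlapped. Hist1h1d alone, with a span of 7425 bases, took 27.4% of the histone counts of the treated library of line 242, and Hist1h1c took 23.8%. Over the controls, the median level was 0.229 CPM per kb of span for these 19 members and 0.544 CPM per kb for the 51 shorter ones.

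**Figure D5:**
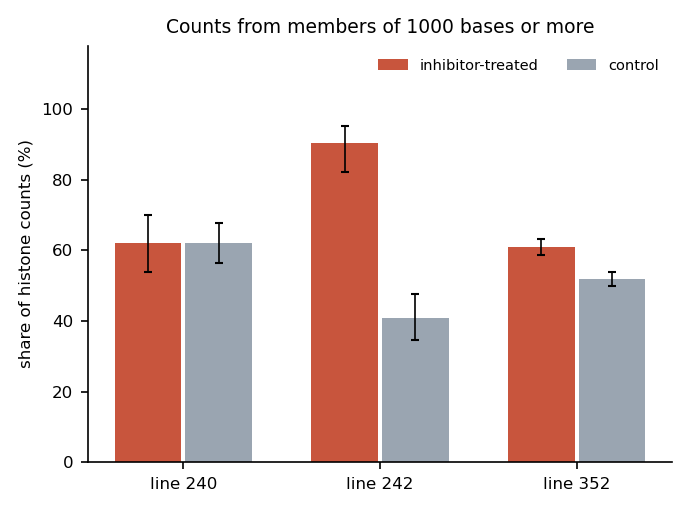
Share of all clustered histone counts (vertical axis, percent, from 0) that came from the 19 members with an annotated span of 1000 bases or more, in treated (red) and control (grey) libraries, with 95% Wilson intervals from counting error. The share in line 242 is 90.5% in treated cells and 41.0% in control cells, and the bars of line 240 are level.

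Differences between lines were tested in the same models. In the 3-line fit 550 of 10331 genes differed between lines (5.32%) and 0 of the 6 members did (edgeR quasi-likelihood), with Hist3h2ba at the smallest adjusted p, 0.0713, and an unadjusted p of 0.00631, the only one of the 6 below 0.05. Without a filter 3009 of 28529 genes differed (10.5%), and 4 of 63 members did: Hist1h2ao (adjusted p = 3.02e-09), Hist3h2ba (1.6e-06), Hist1h1c (2.51e-06) and Hist2h2be (0.0305). Each of these was highest in line 352 among controls. With the filter, on the same libraries, the edgeR adjusted p was 0.0713 for Hist3h2ba, 0.215 for Hist1h1c and 0.351 for Hist2h2be, and Hist1h2ao was not kept. The small p-values of the unfiltered fit thus depend on which genes enter it, and they hardly reflect each gene's own spread. Between lines 240 and 352 alone, 5257 of 11760 genes differed (44.7%) and 5 of 12 members did, the same 4 and Hist1h2ap. Between lines 242 and 352 alone, 865 genes of 11859 differed (7.29%) and 2 of 17 members did, Hist1h2ao and Hist3h2ba.

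Genes that make, cut, carry or stand in for histone messages are listed beside the members. The genes listed as replication-independent encode variants such as those of the H2A.Z and H2A.X kind and for the most part are not tied to S phase. In the 3-line fit 9 of the 14 were tested, 0 passed and their median log2 fold change was −0.38. Without line 242, 1 of 10 rose (5.01% of all genes tested did) and 3 fell (5.92% did). H2afj rose (0.65 ± 0.13, edgeR adjusted p = 0.00821), and H2afv (−0.65 ± 0.12, adjusted p = 0.00477), H2afx (−0.44 ± 0.13, adjusted p = 0.0400) and Cenpa, the centromeric H3 (−0.39 ± 0.11, adjusted p = 0.0452), fell. All 4 also had the same direction within line 242, where the log2 ratios were 1.31, −0.58, −1.21 and −0.54.

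Factors of histone message 3′ processing and decay showed small differences. Of 35 tested genes 0 passed across 3 lines, with a median log2 fold change of −0.05, and 2 rose and 2 fell without line 242, with a median of 0.09, shares close to the 5.01% and 5.92% of all genes in that fit. The cap-binding subunit gene Ncbp2 rose by 0.54 ± 0.12 on the log2 scale (edgeR adjusted p = 0.0118), as did Srrt, which encodes a partner of the cap-binding complex, by 0.46 ± 0.11 (adjusted p = 0.0198). Zcchc11, a terminal uridylyltransferase gene, fell (−0.47 ± 0.12, edgeR adjusted p = 0.0241), and so did Eri1, which encodes an exonuclease that trims the histone stem-loop (−0.36 ± 0.11, adjusted p = 0.0490). Within line 242 the log2 ratios of Ncbp2, Srrt and Zcchc11 had the other sign, at −1.02, −0.53 and 0.65, and that of Eri1 was −1.01. The other genes with the smallest p in the 3-line fit were Cdc73 (0.37 ± 0.14), Lsm11, a subunit of the U7 particle (−0.52 ± 0.28), and Sympk, a scaffold of the cleavage complex (−0.27 ± 0.15), with adjusted p of 0.842, 0.842 and 0.843, and without line 242 they stood at 0.33, −0.33 and −0.24. Among 24 histone chaperone genes 0 passed across 3 lines, and 1 rose (Ipo4, 0.94 ± 0.11, adjusted p = 0.000495) and 1 fell (Hjurp, −0.52 ± 0.12, adjusted p = 0.0142) without line 242, with log2 ratios of −0.71 and −0.22 within line 242, shares of the list below the 5.01% and 5.92% of all genes. Across 3 lines Hjurp, Asf1b, Chaf1b and Cabin1 had log2 fold changes of −0.42, −0.55, −0.34 and 0.24, all with an adjusted p of 0.842 or 0.843, and without line 242 Asf1b, Chaf1b and Cabin1 stood at −0.26, −0.21 and 0.12.

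Genes of S phase and DNA replication, 35 in number, act when new histones are made. In the 3-line fit 0 passed, and 33 of the 35 had a log2 fold change below 0 (49.4% of all genes tested did), with a median of −0.28. The smallest p were those of Ccna2 (−0.59 ± 0.23), Lig1 (−0.46 ± 0.19), Ccne1 (−0.51 ± 0.21) and Ccne2 (−0.33 ± 0.16), each with an edgeR adjusted p of 0.842, and without line 242 they stood at −0.35, −0.29, −0.33 and −0.29. The summed level of the list was 8864, 4213 and 7453 CPM in treated cells and 8259, 8710 and 8108 CPM in control cells, so the low value was that of line 242. Without line 242, 0 of 35 passed, 21 were below 0 and the median was −0.02.

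Other RNAs known to lack a poly(A) tail, 18 in number, had lower sums than the 70 clustered histone genes in every library. The lists differ in size, so these sums do not compare levels per gene. They summed to 15.5, 39.7 and 27.5 CPM in treated cells of lines 240, 242 and 352, and to 17.9, 15.2 and 18.5 CPM in control cells. In the treated library of line 242, Rn7sk, the small nuclear RNA that holds the elongation factor P-TEFb, made up 20 of the 24 counts. Rn7sk had 3.16, 33.1 and 7.41 CPM in treated cells and 4.96, 0.298 and 4.69 CPM in control cells. Only Rn7sk (log2 fold change 1.46 ± 1.37, edgeR adjusted p = 0.868) and Snora73b (0.16 ± 0.54, adjusted p = 0.982) passed the filter of the 3-line fit, and 0 of 4 passed the test without line 242, where Rn7sk stood at 0.24 and Snora73b at 0.62.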

How the data were processed

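RNA from 3 T-ALL lines was selected on poly(T) beads and sequenced as stranded libraries, 2 lanes each. The 12 deposited files hold raw read counts per gene, made by the authors without normalization. According to the submitters' notes the tools were HISAT2, HTSeq and edgeR on the mm10 build, whereas the study's methods name TopHat as aligner. Sources used here do not give the annotation, the strand setting or how reads with several matches were treated. All 70 members matched GENCODE vM21 in position and strand.

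Lanes were summed. The labels mark the paired files as lanes of the same library, whereas a legend in the study's supplement speaks of separate cultures. Over all genes their chi-square per degree of freedom was 0.982 to 1.02 in lines 240 and 242, within counting error, and 2.05 and 2.01 in treated and control cells of line 352. If they are cultures, each summed value pools a pair of them. Libraries of a line come from 1 animal and were paired by line, which the data bore out (correlations of deviations from the group means, 0.67, 0.30 and 0.79 over 10331 genes). Tests used edgeR 4.0.16 under R 4.3.3 (filterByExpr by treatment, TMM, quasi-likelihood F test, line as block, Benjamini-Hochberg adjusted p below 0.05). DESeq2 1.42.0 was an alternative. Log2 fold changes are treated over control. SEs were derived from the F statistic. Within-line ratios used a prior count of 2. Sums are CPM of the library total, with Wilson or exact intervals and no test, and log2 ratios of sums had 0.5 counts added. In the fits of all lines the p-values rest on 3 lines with 1 library per group. With a line left out they rest on the remaining pair of lines. In all these fits they lean on a spread estimated with the help of the other genes. In the unfiltered fits that spread was almost wholly the shared one. Their p-values therefore hardly measure a gene's own spread between lines.

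The members, comparison lists and tests were chosen with earlier results of these data known. Values in each library are given for each member kept by the filter of the 3-line fit and each member past the threshold with or without line 242. Of each comparison list up to 4 genes with the smallest p are named by their fitted values. Hist1h1d, Hist4h4, Hist1h2ao, Hist1h2ap, Hist1h2bj, Hist1h2aj, Hist2h2ac, Hist1h3c, Ncbp2, Srrt, Zcchc11 and Ipo4 were added after their values were seen. In simulated counts over 10236 genes with 200 changed, the 3-line fit recovered 76% of 2-fold and 100% of 4-fold changes with 5 false calls. There each gene had the same expected share in all lines, the same response in all lines and a single fixed spread. The simulation checks that the fit runs as meant and does not show what it could recover in these libraries. Alternatives were the block, scaling, filter, lane, tool and each line left out. After the data were seen, the unfiltered fits without line 242 and between lines, the union of exons as length and control levels without the highest library were added.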

Additional observations from a re-analysis of the deposited data

Results flagged for a closer look

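The summed level of the clustered histone genes moved in opposite directions in different lines, with counting intervals on opposite sides of 1. Treated over control, line 240 stood at 0.619 and line 352 at 0.764, but line 242 at 2.10. For the H1 genes alone line 240 stood at 0.628, line 352 at 1.33 and line 242 at 6.24. The difference between lines in these ratios was not tested, since each line has 1 library per group, and the treated library of line 242 held 604984 counts and 11.8% mitochondrial counts.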

How the results depend on the processing

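Among the histone genes, 0 were called higher under every alternative run, and 0 lower except without line 242, where 2 were (also 2 without a filter), so leaving out 1 line gave 0 to 2. Over all genes, the count higher was 35 with DESeq2, 260 without a filter, 765 without a filter and line 242, and 0 in the other fits of 3 lines. It was 3 to 589 with 1 line left out. The count lower was 10, 52 and 963 in the same fits and 0 to 696 with 1 line left out. Differences between lines numbered 3009 without a filter (4 histone genes) and 209 to 5257 with 1 line left out (0 to 5 histone genes), against 550 (0 histone genes).

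Hist2h2be passed at −1.06 and Hist1h2bc at −1.98 and −1.99 without line 242, with and without the filter. Without the replicate block, 0 genes were called in either direction, and Hist3h2a changed sign, to a log2 fold change of 0.053. With 1 line left out it ran from −0.18 to 0.50. The block changed no call. The mean log2 ratio of the H3 sum was −0.77, −0.69 over lines 240 and 352, and −0.36 in lane 2 only. The cause was not tested. Depth limits 49 members to under 30 counts. In the treated library of line 242 a count of 0 allows a level of up to 4.96 CPM.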
